A study of Saccharomyces cerevisiae with 27 samples.

Results

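NRCM-supplemented BY4741 cells were compared with water-supplemented cells at 96 h, when the cultures were in stationary phase. The comparison took the 6 libraries that carry these labels, 3 with NRCM and 3 with water, out of 27 in the series, and it was read across all genes. All cultures had 2% glucose in synthetic complete (SC) medium. NRCM is spent medium of cells grown without glucose restriction, filtered and concentrated before it was added at 2% by volume, and an equal volume of sterile water was the control. Both were added at inoculation, so the cells had lived with the supplement through growth, the diauxic shift, and the days without glucose. The series also holds cells given CRCM, the same kind of concentrate from glucose-restricted cultures, and cells collected at log phase and 24 h. BY4741 is a haploid MATa laboratory strain that carries deletions of HIS3, LEU2, MET17 (also called MET15), and URA3, and both groups carry them. It is 1 strain, and the methods give the 3 libraries of a group as biological replicates.

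When glucose runs out, yeast cells first use the ethanol and acetate they made, through respiration, and then stop dividing. In this state they make little ribosomal RNA, carry high levels of stress transcripts, and live off storage carbohydrate, lipid, and recycled amino acids. Genes for the use of other sugars, for taking up nitrogen sources, and for iron and zinc are then set by what is left in the medium, and conditioned medium brings in what earlier cells secreted or did not use. Expression is given as CPM, a gene's reads relative to the size of its library, scaled with TMM factors, which correct for differences in library composition. A log2 fold change is NRCM over water on the log2(CPM + 1) scale, fitted with limma over the 9 libraries of 96 h, and every adjusted p comes from limma unless another tool is named. A gene was called at an adjusted p under 0.05.

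The libraries held 7894044, 7519019, and 10362453 reads with NRCM, against 22163615, 11284853, and 20149028 with water, so 1 CPM rested on about 7.52 to 22.2 reads. Rare transcripts sat lower in the NRCM libraries: 110 to 139 genes were under 1 CPM with NRCM, against 6 to 48 with water, and the 1st percentile was 0.389 to 0.548 CPM with NRCM and 1.23 to 2.63 CPM with water. LEU2, which the strain lacks, was at 0 in the 3 NRCM libraries and at 0.0798 to 0.132 CPM with water, and MET17 was at 0 in all 6. HIS3, of which the strain keeps a part, was at 40.4 to 48.7 CPM with NRCM and at 32 to 43.2 CPM with water. MFA1, which only MATa cells express, was at 160 to 169 CPM with NRCM and at 99.1 to 129 CPM with water. Its call (adjusted p = 0.0476) was lost in 7 of 9 fits that leave out 1 library. The MATa genes MFA2 and STE2 overlapped, at 147 to 206 and 130 to 161 CPM with NRCM and 144 to 183 and 136 to 165 CPM with water. Alpha-specific MF(ALPHA)2 was at 23.3 to 26.7 CPM with NRCM and 14.3 to 18.5 CPM with water (adjusted p = 0.00673). STE3, also alpha-specific, was at 42.2 to 49.8 and 37.2 to 45.3 CPM. Gene length also moved with the comparison. Across 5965 nuclear genes the Spearman correlation of log2 fold change with length was -0.27, as a description across genes, which are not replicates. CRCM 96 h replicate 3, which enters the spread of the fit but not the difference, had 70.0 CPM of LEU2 and is treated below where it moves a count.

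Of 6652 genes tested, 1630 were called (24.5%), 833 higher with NRCM (12.5%) and 797 lower (12%). Counts of list members from the fit over 9 libraries are to be read against these shares. The changes were mostly small. Over 1.5-fold, 306 genes were higher and 338 lower, and over 2-fold, 49 were higher and 109 lower, and 83 of those 109 were nuclear genes. In 3602 genes (54.1%) the 3 NRCM and the 3 water libraries did not overlap, and 1625 of the 1630 genes called were among them. Principal components were taken from the 500 genes that varied most across these same 6 libraries. The first held 86.9% of the variance of those genes, not of all genes, with NRCM at 13.02 to 14.94 and water at -20.64 to -10.7. A level in bulk RNA is a share, and fewer cells with a transcript and less of it per cell cannot be told apart.

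The counts depended on how the libraries were scaled and on which of them were in the fit. Without TMM factors the median gene moved to -0.10, against 0.00 with them, and 489 genes were higher and 1108 lower. Leaving out any 1 NRCM or water library left 351 to 555 higher and 336 to 507 lower genes, while leaving out CRCM replicate 3 gave 1433 and 1341. Of the 1630 calls, 555 were kept in all 9 fits that leave out 1 library, 294 higher and 261 lower. A called gene whose log2 fold change stands below in the Results prose with no further remark kept its call in all 9. This covers calls between NRCM and water at 96 h only.

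**Figure D1:**
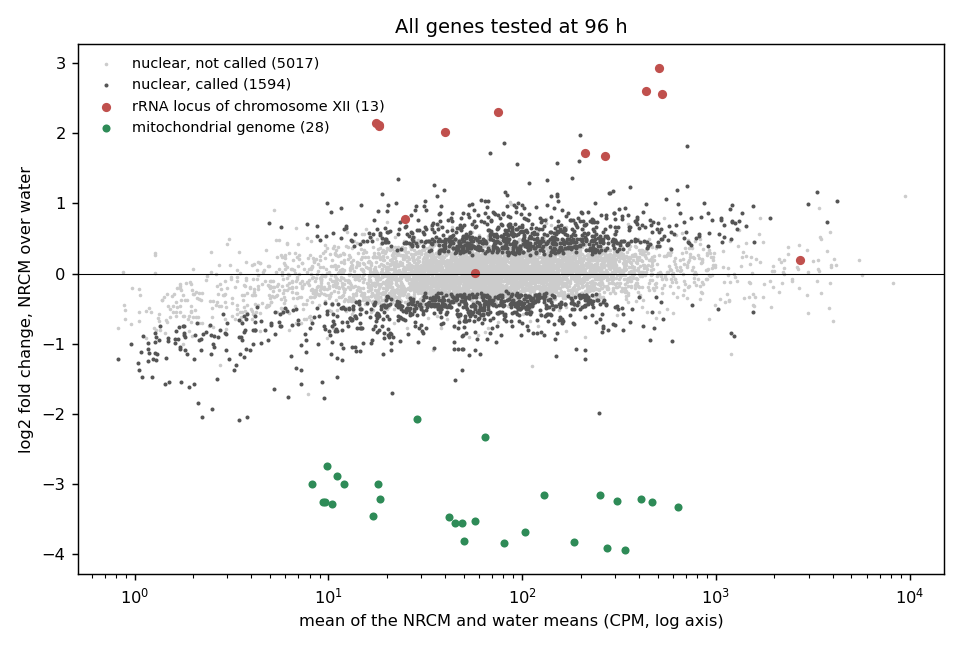
Log2 fold change (NRCM over water, y axis) against mean level (CPM, log x axis) for all 6652 genes tested at 96 h, 1 point a gene. The 28 transcripts of the mitochondrial genome lie between -3.94 and -2.07, and 10 of 13 genes at the rRNA locus of chromosome XII were called higher. Genes of a few CPM lean below 0.

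The 10 largest decreases were all transcripts of the mitochondrial genome, which encodes subunits of the respiratory chain and ATP synthase, 1 ribosomal protein, and intron-encoded proteins. Their summed level, here in CPM without TMM factors, was 464, 779, and 471 with NRCM, against 4240, 12300, and 5020 with water. The means were 571 ± 180 and 7180 ± 4430 CPM (SD, n = 3 each). The groups did not overlap, and the ratio of geometric means was 11.5 in favour of water (log2 -3.53, exact two-sided permutation p = 0.1, the smallest that 3 against 3 can give). Water replicate 2 was the highest, and without it the log2 ratio was -3.06. Of 28 transcripts tested 26 were lower, 19 of them in all 9 fits that leave out 1 library.

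COB, which encodes cytochrome b, was at 35.02, 51.2, and 27.7 CPM with NRCM and at 388, 1079, and 459 CPM with water (log2 fold change -3.94, SE 0.37, adjusted p = 0.000427). COX3 and COX2, subunits of cytochrome c oxidase, had log2 fold changes of -3.56 and -3.55, ATP6 -3.47, and VAR1, the mitochondrial ribosomal protein, -3.53. BI4, BI3, and BI2, which lie in introns of COB, were at -3.91, -3.82, and -3.68 and can share reads with it. OLI1 and SCEI were the 2 transcripts not called, at -2.07 and -2.33. Mitochondrial mRNAs of yeast have no poly(A) tail, and these libraries were selected for poly(A), so the values count what passed that step. At 24 h the sums were 389, 96.6, and 125 CPM with NRCM and 1740, 937, and 1380 CPM with water.

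Among the 10 largest increases, 8 were short open reading frames at the ribosomal DNA of chromosome XII by position or systematic name, where the reference holds 12 rRNA genes between 451786 and 489469. YLR154C-G, which lies inside a 25S rRNA gene, was at 921, 1434, and 386 CPM with NRCM, against 101, 100.4, and 110.4 CPM with water (log2 fold change 2.93, SE 0.41, adjusted p = 0.00172). RRT15, 937 bases from the nearest rRNA gene, was at 122.6, 210.5, and 50.2 CPM with NRCM and at 21.2, 22.8, and 19.98 CPM with water (2.30, adjusted p = 0.00323). NRCM replicate 2 was the highest and NRCM replicate 3 the lowest at both. YLR154W-B (2.61), YLR154W-A (2.56), and YLR162W (2.02) were higher too. YLR157C-C, YLR159C-A, and YLR156C-A, each overlapping a 5S gene, were at 2.14, 2.12, and 2.10, but their calls were lost without NRCM replicate 1 or 2 or water replicate 1, and that of YLR156C-A also without water replicate 2 or 3. TAR1, which also lies in a 25S gene, overlapped between the groups (0.20, adjusted p = 0.831). These frames cannot be separated from the rRNA transcripts they overlap, and how much rRNA each library carried was not tested.

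**Figure D2:**
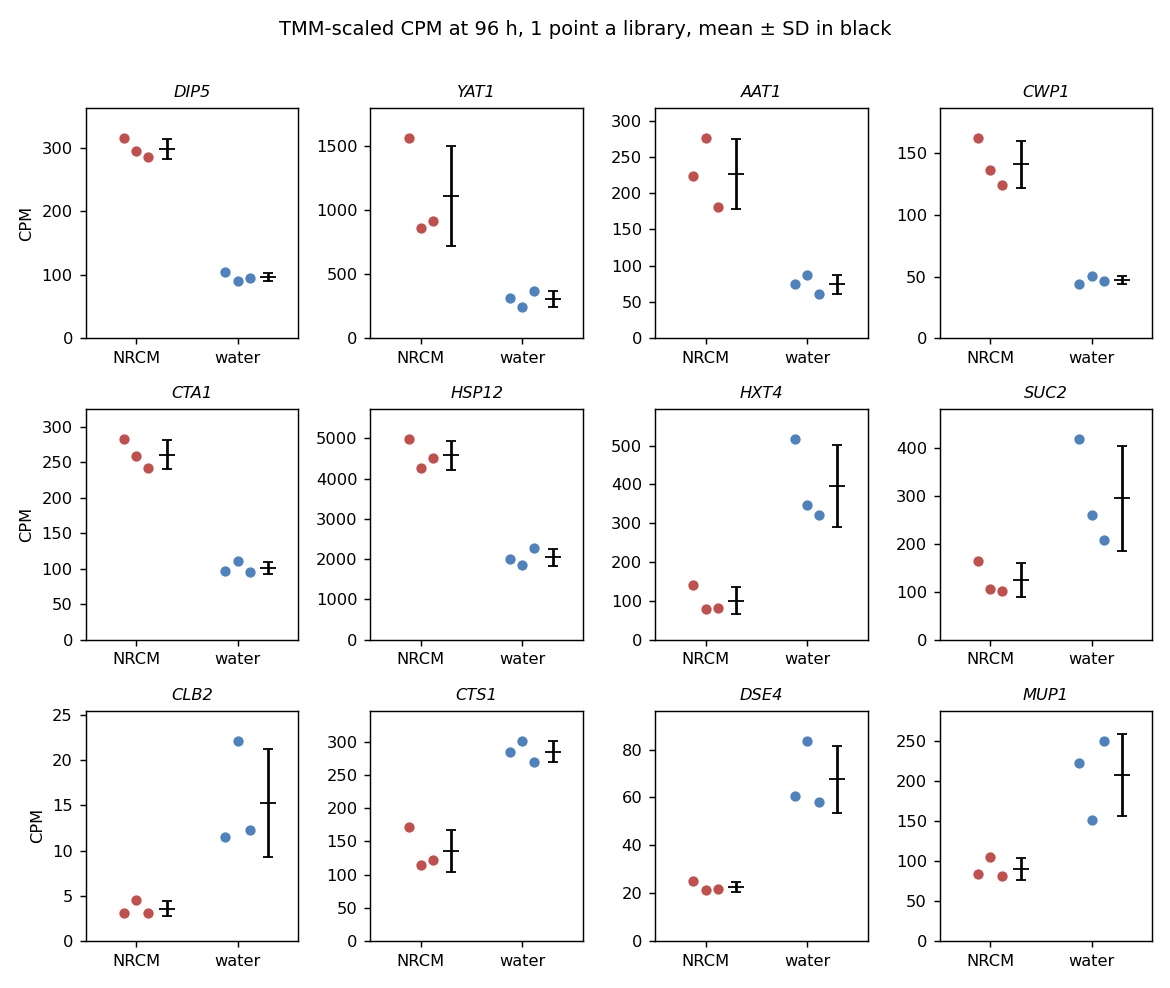
Level of 12 named nuclear genes at 96 h (CPM, y axis from 0 in each panel), with 1 point for each of the 3 NRCM libraries on the left and each of the 3 water libraries on the right, and mean ± SD in black. DIP5 sits at 284 to 315 CPM with NRCM and at 91.0 to 104 CPM with water, and HXT4 at 79.6 to 141 CPM with NRCM and at 321 to 516 CPM with water. No panel has overlapping groups, which follows from the choice of called genes. Of 1630 called genes 1625 had no overlap, and of all genes 54.1%.

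Outside the rRNA locus, the gene with the smallest adjusted p of all was DIP5, the permease for glutamate and aspartate. It was at 315, 295, and 284 CPM with NRCM, against 104, 91.0, and 95.7 CPM with water (log2 fold change 1.61, SE 0.11, adjusted p = 8.57e-05). AAT1, the mitochondrial aspartate aminotransferase, was at 223, 276, and 180 CPM with NRCM and at 75.5, 86.8, and 61.3 CPM with water (1.58, adjusted p = 0.000511). Both groups were tight at DIP5, and the lowest NRCM library of AAT1 lay above every water library. PUT4, the proline permease, was at 273, 163, and 196 CPM with NRCM and at 102, 79.55, and 97.4 CPM with water (1.14, adjusted p = 0.00218). BAP2, a permease for branched-chain amino acids, was at 765, 780, and 764 CPM with NRCM and at 496, 458, and 475 CPM with water (0.69, adjusted p = 0.00528), and PTR2, which takes up di- and tripeptides, rose by 0.70 (adjusted p = 0.00558).

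MUP1, the high-affinity methionine permease, went the other way, at 84.1, 105, and 80.6 CPM with NRCM and 222, 151, and 250.5 CPM with water (-1.18, adjusted p = 0.00207). Of 24 amino acid permeases tested, 6 were higher and 1 lower, with a median of 0.05 where the median of all genes was 0.00, and 5 to 6 were higher without any 1 NRCM or water library. GAP1, the general amino acid permease, overlapped between the groups (0.05, adjusted p = 0.887), and so did AGP1 (0.04, adjusted p = 0.891).

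Among 34 genes under nitrogen catabolite repression, by which preferred nitrogen sources keep the genes for poorer ones off, 8 were higher and 2 lower (median 0.22, or 0.12 without TMM factors). DAL80, a GATA-family repressor of these genes, was at 51.6, 61.99, and 51.6 CPM with NRCM, against 24.3, 23.0, and 23.3 CPM with water (1.19, adjusted p = 0.000427). PUT4 belongs here as well, and DUR3, the urea and polyamine transporter, was at 75.5, 79.7, and 83.4 CPM with NRCM and at 171, 105.5, and 165 CPM with water (-0.85, adjusted p = 0.00551). CAR2, ornithine aminotransferase, rose by 0.77 (adjusted p = 0.0175), a call lost without NRCM replicate 1 or water replicate 2. Leaving out 1 NRCM or water library left 3 to 7 of the 8 higher. BAT2, the cytosolic branched-chain aminotransferase, was at 278, 204.5, and 213 CPM with NRCM and at 127, 134, and 141 CPM with water (0.77, adjusted p = 0.00482). Amino acid catabolism as a list was split, with 6 of 39 higher and 7 lower (median -0.05).

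The genes for methionine and one-carbon units were lower where they were called, save 1 in each list. Of 32 genes of sulfate assimilation and methionine, 6 were lower and 1 higher (median -0.14), and of 29 in serine and one-carbon metabolism 5 were lower and 1 higher (median 0.00). Over all genes 12% were lower. MET6, which makes methionine from homocysteine, was at 309.5, 232, and 278 CPM with NRCM and at 519.5, 382, and 427 CPM with water (-0.69, adjusted p = 0.00800). SHM2, the cytosolic serine hydroxymethyltransferase, was at 325, 275, and 334 CPM with NRCM and at 624, 438, and 522 CPM with water (-0.75, adjusted p = 0.00535). At neither gene did the groups overlap. MET10, a subunit of sulfite reductase, fell by 0.68 (adjusted p = 0.00360), and MTD1, which oxidizes a cytosolic one-carbon folate, by 0.46 (adjusted p = 0.00738). SHM1, the mitochondrial form of SHM2, overlapped between the groups (-0.06, adjusted p = 0.780). SER3, of serine synthesis, was the higher member of the one-carbon list (0.75, adjusted p = 0.0394), a call lost without any 1 water library or CRCM replicate 2. Leaving out 1 NRCM or water library left 3 to 6 lower genes of the first list and 3 to 4 of the second. The lower genes were long, with median coding lengths of 2493 and 2304 bases. With the length trend removed, as described below, the first list had 6 lower and 0 higher, and the second 3 lower and 2 higher.

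Of 21 genes of purine synthesis 2 were lower, a smaller share than the 12% of all genes, and 1 higher (median -0.24). The lower ones were ADE17 (-0.78, adjusted p = 0.00391) and ADE6 (-0.59, adjusted p = 0.00418, or -0.34 with the length trend removed). ADE17 was at 202, 164, and 209 CPM with NRCM and at 381, 279, and 332 CPM with water. Of 18 genes of NAD synthesis and salvage 6 were lower and 2 higher (median -0.06), and BNA1, of the kynurenine route from tryptophan, was at 44.5, 40.7, and 42.1 CPM with NRCM and at 60.6, 61.6, and 69.55 CPM with water (-0.58, adjusted p = 0.00320). It was the member of that list whose call was kept in all 9 fits, and 1 to 4 were lower without any 1 NRCM or water library. Genes of amino acid biosynthesis under general control, the response driven by Gcn4, gave 7 higher and 3 lower of 61 with a median of 0.00. LYS20, homocitrate synthase of lysine synthesis, was at 566, 610, and 530 CPM with NRCM and at 361, 303, and 392 CPM with water (0.70, adjusted p = 0.00475), while GCN4 itself was at -0.34 (adjusted p = 0.154). SNZ1, of vitamin B6 synthesis, rose by 0.79 (adjusted p = 0.00357).

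Sugar uptake genes separated by family member. HXT4, a glucose transporter of high affinity, was at 141, 79.6, and 81.8 CPM with NRCM, against 516, 348, and 321 CPM with water (log2 fold change -1.98, SE 0.29, adjusted p = 0.00192), the largest decrease of a nuclear gene with a mean of 10 CPM or more in both groups. HXT13 was at 8.30, 8.50, and 8.97 CPM with NRCM and at 17.4, 22.5, and 16.8 CPM with water (-1.04, adjusted p = 0.00107), and HXT17 and HXT14 had log2 fold changes of -1.11 and -1.35. HXT13 and HXT17 are near-identical copies, so reads may have been split between them. HXT7, HXT6, and HXT5, the abundant transporters at 2577 to 5297 CPM, overlapped between the groups. In the list of 28 genes, 4 were lower and 1 higher (median -0.13), with 4 lower without any 1 NRCM or water library. As a list it was near the 12% lower over all genes, and below the 12.5% higher. The higher one was MIG1, the glucose repressor, at 153, 156, and 169 CPM with NRCM and at 100, 90.5, and 91.4 CPM with water (0.76, adjusted p = 0.00214).

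SUC2, invertase, was at 165, 106, and 101.5 CPM with NRCM, against 418, 260, and 208 CPM with water (-1.22, adjusted p = 0.00872). The maltase genes MAL32 (-0.99, adjusted p = 0.00540) and MAL12 (-0.90, adjusted p = 0.00621), also near-identical, and the isomaltase gene IMA5 (-1.48, adjusted p = 0.00160) were lower too, so that 4 of 14 genes of maltose and sucrose use were lower and 1 was higher (median -0.26). All 4 stayed lower without any 1 NRCM or water library. IMA5 was low throughout, at 5.58, 5.20, and 4.88 CPM with NRCM and 14.0, 23.5, and 13.1 CPM with water.

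YAT1, the carnitine acetyltransferase of the outer mitochondrial membrane, carries acetyl units for respiration, and it had the largest increase of any gene that belongs to a list. It was at 1558, 861, and 911 CPM with NRCM and at 312, 242, and 365 CPM with water (1.82, SE 0.26, adjusted p = 0.00184). CRC1, the carnitine carrier of the inner membrane, was at 295, 251, and 238 CPM with NRCM and at 148.5, 137, and 139 CPM with water (0.88, adjusted p = 0.00323). ADY2, the acetate transporter, was at 95.8, 69.2, and 85.1 CPM with NRCM and at 39.2, 41.3, and 38.1 CPM with water (1.05, adjusted p = 0.00248), and ATO2, its paralog, rose by 0.99 (adjusted p = 0.00176). These 4 were kept in all 9 fits, out of 5 higher and 1 lower among 25 genes of gluconeogenesis, the glyoxylate cycle, and acetate use (median 0.15). The enzymes that define that list were not called: PCK1 was at -0.29 (adjusted p = 0.239), FBP1 at -0.30 (adjusted p = 0.168), ICL1 at 0.04 (adjusted p = 0.874), and ACS1 at 0.42 (adjusted p = 0.161). MPC3, the mitochondrial pyruvate carrier subunit of respiring cells, was at 487, 597, and 542 CPM with NRCM and at 302, 261, and 318 CPM with water (0.88, adjusted p = 0.00295), in a list of 28 genes for the TCA cycle and pyruvate entry that had 2 higher and none lower. The 20 genes for trehalose and glycogen had a median of 0.10, and TPS1, of trehalose synthesis, did not pass the test, with 1005, 817, and 871 CPM with NRCM against 616, 635, and 704 CPM with water (0.46, adjusted p = 0.0550).

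CTA1, the peroxisomal catalase, was at 282, 258, and 241 CPM with NRCM, against 96.4, 111, and 95.9 CPM with water (1.36, adjusted p = 0.00320). It stood in 2 lists: beta-oxidation, with 4 of 17 higher (median 0.17), and antioxidant enzymes, with 9 of 28 higher and 1 lower (median 0.23). CCP1, mitochondrial cytochrome c peroxidase, was at 523.5, 433, and 395 CPM with NRCM and at 236, 256, and 261 CPM with water (0.83, adjusted p = 0.00440). SOD2, the mitochondrial superoxide dismutase, rose by 0.75 (adjusted p = 0.0138), a call lost without NRCM replicate 1 or water replicate 1 or 2. TSA2, a thioredoxin peroxidase, was the member that fell (-0.61, adjusted p = 0.00934). Only 2 to 5 antioxidant genes were higher without any 1 NRCM or water library, and 4 without TMM factors, against 14 without CRCM replicate 3.

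HSP12, a small membrane-bound stress protein, was among the most abundant transcripts that changed, at 4974, 4268, and 4501 CPM with NRCM and at 2009, 1861, and 2280 CPM with water (1.16, SE 0.26, adjusted p = 0.0117). SIP18, induced by drying and osmotic stress, was at 3969, 3707, and 4209 CPM with NRCM and at 2079, 1700, and 2227 CPM with water (0.99, adjusted p = 0.0128). SPG4, a stationary phase gene, was at 1014, 995, and 979 CPM with NRCM and at 390, 459, and 409 CPM with water (1.25, adjusted p = 0.000639). PAI3, the inhibitor of the vacuolar protease Pep4 (0.92, adjusted p = 0.00450), and FMP16 (1.07, adjusted p = 0.00313) rose as well. Of 34 genes of the general stress and stationary phase list 14 were higher and none lower (median 0.49), of which 5 were kept in all 9 fits. Without any 1 NRCM or water library 5 to 8 were higher, without TMM factors 8, and without CRCM replicate 3, 23.

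The cytosolic heat shock chaperones that define the heat shock list were not called. HSP104, the disaggregase, was at 4637, 3585, and 4184 CPM with NRCM and at 3177, 3229, and 3507 CPM with water (0.32, adjusted p = 0.247), HSP82 was at 0.34 (adjusted p = 0.232), SSA4 at -0.29 (adjusted p = 0.216), and HSP26 at -0.14 (adjusted p = 0.760). Called members were the J-proteins YDJ1 (0.68, adjusted p = 0.00245) and SIS1 (0.57, adjusted p = 0.00801), which assist Hsp70, besides HSP12 and the mitochondrial chaperones MDJ1 and HSP60, the last named after its values were seen (0.45, adjusted p = 0.0456, lost in 7 of the 9 fits), in all 5 of 27 higher and none lower (median 0.24). YDJ1 was at 743.5, 698, and 677 CPM with NRCM and at 413, 443, and 468 CPM with water. The call of MDJ1 (0.71, adjusted p = 0.0387) was lost without any 1 NRCM or water library, and 3 to 4 members were higher in those fits, against 9 without CRCM replicate 3.

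The stress response element, searched as AGGGG on both strands in the 300 bases before each coding start, was in 22.2% of 6002 such windows. It was in 22 of the 34 stress genes, 13 of the 14 that were higher and 9 of the 20 not called. A match describes letters only, not binding. The same search for the proteasome and iron lists follows with their genes, and none of the 3 motifs contains another.

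**Figure D3:**
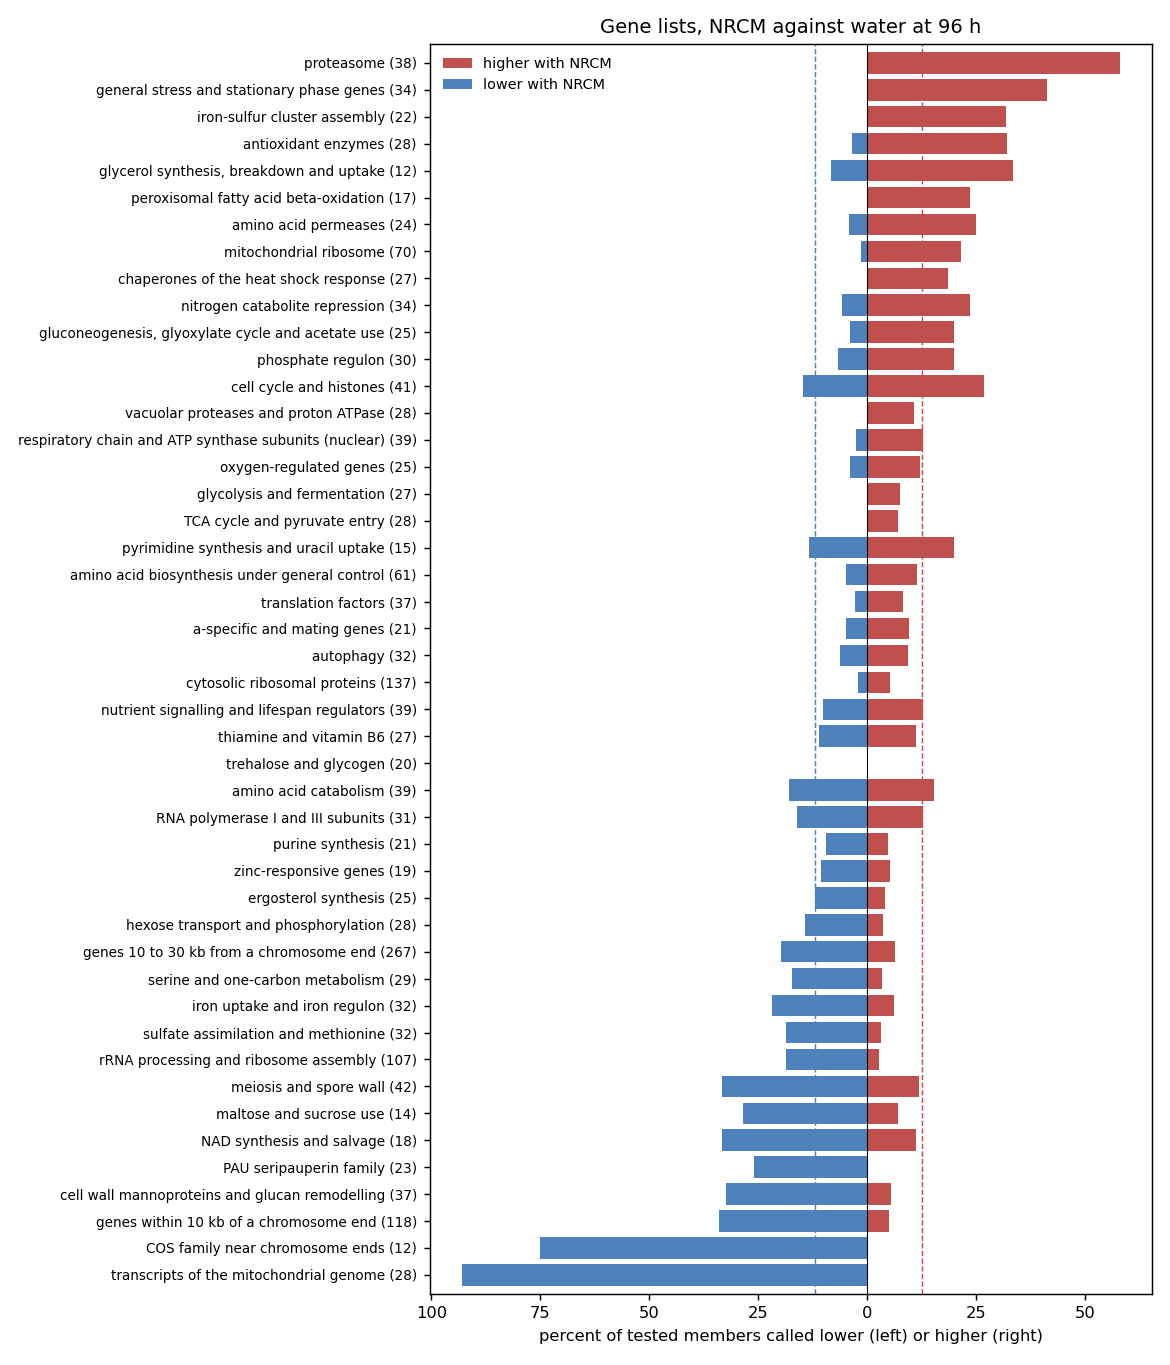
Percent of tested members called higher (bars to the right) or lower (bars to the left) with NRCM than with water at 96 h, for each gene list with at least 10 members, whose number is in parentheses. Dashed lines mark the share over all genes, 12.5% higher and 12% lower. The proteasome stands at 22 of 38 higher and transcripts of the mitochondrial genome at 26 of 28 lower.

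The proteasome, which degrades ubiquitin-tagged proteins, had the largest share of members higher of the lists with 10 or more, at 22 of 38 and none lower (57.9% of the list, median 0.33). The 20S core particle, the barrel that cuts the protein, had 13 of 14 subunits higher (median 0.37), and all 14 lay between 0.31 and 0.61. Of the 6 ATPases that unfold the substrate 4 were higher (median 0.31), and of 12 non-ATPase subunits of the regulatory particle 1 was (median 0.14). The groups did not overlap at the 14 core subunits, the 6 ATPases, and 7 of the 12 non-ATPase subunits. Over all genes tested, 54.1% had no overlap. PUP3, a core subunit, was at 283, 309, and 263.5 CPM with NRCM and at 190, 165, and 203 CPM with water (0.61, adjusted p = 0.00723). UFD1, which works with the segregase Cdc48, rose by 0.65 (adjusted p = 0.00894). PRE6 was at 147.5, 126, and 140.5 CPM with NRCM and at 83.9, 85.7, and 109 CPM with water (0.58, adjusted p = 0.0181), a call lost without NRCM replicate 1 or 3 or water replicate 1 or 2.

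The shifts were small and the count was sensitive. Without any 1 NRCM or water library 6 to 11 members were higher, 10 without TMM factors, 13 over all 27 libraries, and 15 with the length trend removed. Core subunits are short, with a median coding length of 764.5 bases, and 8 of 14 were higher with the length trend removed. UBI4, polyubiquitin, was at -0.02 (adjusted p = 0.948).

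Many proteasome genes carry the proteasome-associated control element, bound by Rpn4. RPN4 itself, chosen after its values were seen, was at 543, 567, and 569 CPM with NRCM and at 447, 405, and 433 CPM with water (0.39, adjusted p = 0.0159), a call lost without NRCM replicate 3 or water replicate 2. The element, searched as GGTGGCAAA on both strands, was in 1.22% of 6002 windows and in 29 of 38 proteasome genes, 15 of the 22 higher and 14 of the 16 not called. The windows below, from the RefSeq genome R64 (sacCer3) and written 5′ to 3′ on the strand of the gene, show the element or its reverse complement in capitals for 3 core subunits that were higher and for RPN5 and RPN9, which were not called. They were chosen, PRE8, RPN5, and RPN9 after their values were seen, to show that the same letters stand before genes of both kinds.
PUP3, chrV:349511-349539, log2 fold change 0.61: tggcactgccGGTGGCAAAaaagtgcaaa
PRE6, chrXV:255218-255246, log2 fold change 0.58: cgaagattctTTTGCCACCggaagggaaa
PRE8, chrXIII:86841-86869, log2 fold change 0.52: agcttattaaGGTGGCAAAattgtccccg
RPN5, chrIV:190776-190804, log2 fold change 0.10: ttgacttttcGGTGGCAAAatgcaaaggg
RPN9, chrIV:1322086-1322114, log2 fold change -0.06: gctttcatccGGTGGCAAAagtaagaaca
The elements lie 174, 100, 111, 129, and 100 bases before the annotated start in that order, and they are on the strand opposite to the gene in PRE6.

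In the iron regulon, which Aft1 turns on when iron is short, 7 of 32 were lower and 2 higher (median -0.22), while of 22 genes for assembly of iron-sulfur clusters 7 were higher and none lower (median 0.16). The 2 lists were not tested against each other. The lower regulon genes included, besides uptake genes and named after their values were seen, ATX1, a copper chaperone, and TIS11, which degrades mRNAs when iron is short, and of the 7 only FRE2 kept its call in all 9 fits. FRE2, a ferric reductase, was at 42.6, 44.3, and 48.1 CPM with NRCM and at 97.7, 73.5, and 89.5 CPM with water (-0.93, adjusted p = 0.000943). FET3, the multicopper oxidase of iron uptake, was at 787, 828, and 942 CPM with NRCM and at 1992, 1083, and 1820 CPM with water (-0.89, adjusted p = 0.0175), and ARN1, a siderophore transporter, at 712, 837.5, and 950.0 CPM with NRCM and at 2025, 949, and 1709 CPM with water (-0.84, adjusted p = 0.0318). Water replicate 2 lay next to the NRCM libraries at both, and at ARN1 just below the highest of them. Both calls were lost without NRCM replicate 1 or 2 or water replicate 1 or 3, and that of ARN1 also without NRCM replicate 3. The list had 1 lower member without water replicate 1 and 2 without water replicate 3 or NRCM replicate 1, but 8 without water replicate 2. CCC1, which stores iron in the vacuole, was at 226, 244, and 238 CPM with NRCM and at 147, 148, and 149 CPM with water (0.67, adjusted p = 0.0108), and FIT1, a wall mannoprotein that holds siderophores, was the other higher member (0.37, adjusted p = 0.0428), a call lost without any 1 NRCM or water library.

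The Aft1 site, searched as TGCACCC, was in 1.33% of 6002 windows and in 15 of 32 genes of the regulon, 5 of the 7 lower, 1 of the 2 higher, and 9 of the 23 not called. It is shown in capitals, as above, for FET3 and ARN1 and for FTR1, the iron permease that works with Fet3 and was not called (-0.54, adjusted p = 0.0556).
FET3, chrXIII:388561-388587, log2 fold change -0.89: tcttcaaaagTGCACCCatttgcaggt
ARN1, chrVIII:21215-21241, log2 fold change -0.84: tttatcaaaaTGCACCCataaaagcag
FTR1, chrV:461899-461925, log2 fold change -0.54: cgtagatgaaTGCACCCgatttctaag
All 3 lie on the strand of their gene, 244, 253, and 168 bases before the annotated start.

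In iron-sulfur cluster assembly 5 to 7 genes were higher without any 1 NRCM or water library, 7 without TMM factors, and 6 with the length trend removed. YAH1, the mitochondrial ferredoxin, was at 93.9, 83.4, and 84.8 CPM with NRCM and at 48.8, 49.5, and 55.4 CPM with water (0.76, adjusted p = 0.00124). DRE2, an electron carrier of the cytosolic pathway, was at 282, 455, and 258 CPM with NRCM and at 182, 176.5, and 178 CPM with water (0.84, adjusted p = 0.00934), and NAR1, of the same pathway, rose by 0.75 (adjusted p = 0.00357). NRCM replicate 2 stood above the rest at DRE2. Of 39 nuclear genes for the respiratory chain and ATP synthase 5 were higher and 1 lower (median 0.11), none kept in all 9 fits, and the largest, QCR6 of complex III (0.81, adjusted p = 0.0230), lost its call without NRCM or water replicate 1 or 2. Of 70 genes for the mitochondrial ribosome 15 were higher and 1 lower (median 0.09), where 12.5% of all genes were higher. Without any 1 NRCM or water library 6 to 10 were higher, over all 27 libraries 4, and with the length trend removed 7. Over all genes the 833 higher calls became 589 over all 27 libraries and 624 with the length trend removed. MRPS16 was at 110, 121, and 111 CPM with NRCM and at 68.9, 63.6, and 75.2 CPM with water (0.71, adjusted p = 0.00119), and MRP20 rose by 0.68 (adjusted p = 0.00185).

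Genes for building ribosomes were lower more often than higher. Of 107 genes for rRNA processing and ribosome assembly 20 were lower and 3 higher (median -0.19). Over all genes 12% were lower and 12.5% higher. UTP20 and UTP10, large proteins of the complex that processes the small subunit precursor, were at 88.5, 89.4, and 96.5 and at 70.5, 73.9, and 86.7 CPM with NRCM, against 174, 171, and 158 and 137, 143, and 128 CPM with water (-0.87, adjusted p = 0.000639, and -0.81, adjusted p = 0.000931). With the length trend removed, as described below, UTP20 was at -0.38, UTP10 at -0.46, and RPA190 at -0.38. RIX1, of the large subunit pathway, was at 21.0, 20.9, and 21.8 CPM with NRCM and at 34.2, 45.0, and 33.0 CPM with water (-0.77, adjusted p = 0.00410). RPA190, the largest subunit of RNA polymerase I, which makes rRNA, was at 126, 102, and 137 CPM with NRCM and at 208, 193, and 194 CPM with water (-0.71, adjusted p = 0.00298), while RPA14, a small subunit of the same enzyme, rose by 0.86 (adjusted p = 0.00218). The 20 lower genes of rRNA processing had a median coding length of 2373 bases, against 1404 for the 3 higher. With the length trend removed 12 were lower and 3 higher, while the lower calls over all genes went from 797 to 564. Without any 1 NRCM or water library 7 to 12 were lower, and 45 without CRCM replicate 3.

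The 137 genes for cytosolic ribosomal proteins gave 7 higher and 3 lower (median -0.03), but 4 higher and 12 lower without TMM factors and 4 higher and 11 lower with the length trend removed. RPS27A (0.69, adjusted p = 0.00472) and RPS22B (-0.66, adjusted p = 0.00175) were the farthest apart, and each is 1 of a pair of near-identical paralogs whose reads may have been split.

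**Figure D4:**
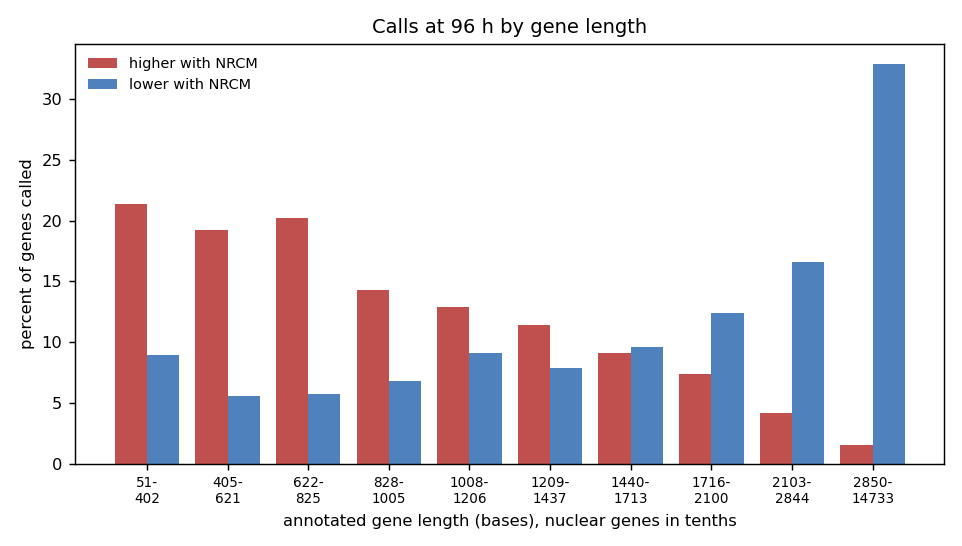
Percent of nuclear genes called higher or lower with NRCM at 96 h (y axis) in 10 equal groups of genes by annotated coding length in bases (x axis). In the shortest group, 51 to 402 bases, 21.4% were higher and 8.96% lower, and in the longest, 2850 to 14733 bases, 1.51% were higher and 32.9% lower.

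Length bears on several of these lists. Genes called higher had a median coding length of 823.5 bases, those called lower 1824, and those not called 1224. The slope was not shared by the libraries of a group in equal measure: the correlation of each library's deviation with length was -0.16, -0.38, and -0.12 with NRCM and 0.38, 0.15, and 0.20 with water. With that trend removed from each library, which was added after seeing the data, 624 genes were higher and 564 lower, and 1024 of the 1432 calls that could be compared were kept. TOR1 and TOR2, the long kinase genes, were at -0.42 and -0.43 (adjusted p = 0.0297 and 0.0242), calls lost without NRCM replicate 1 or 2 or any 1 water library, and with the trend removed they were at 0.07 and 0.05 and not called. Whether length or another property of the transcripts or the RNA moved these values was not tested.

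Several cyclin transcripts were lower, at low levels, in a list with more members higher than lower. CLB2, the main mitotic cyclin, was at 3.11, 4.52, and 3.12 CPM with NRCM and at 11.4, 22.2, and 12.2 CPM with water (-1.78, SE 0.32, adjusted p = 0.00450). CLB6, an S phase cyclin, was at 9.47, 8.22, and 9.75 CPM with NRCM and at 14.9, 19.2, and 14.4 CPM with water (-0.75, adjusted p = 0.00676), and CLN2, a G1 cyclin, fell by 0.59 (adjusted p = 0.0134). HOF1, which acts at the bud neck in cytokinesis, was at 3.76, 4.655, and 3.80 CPM with NRCM and at 10.7, 21.98, and 10.9 CPM with water (-1.54, adjusted p = 0.00734). Water replicate 2 was the highest at all 4. CLN3, the G1 cyclin that responds to nutrients, was at 134 to 136 CPM with NRCM and 134 to 141 CPM with water (-0.02, adjusted p = 0.899). Of 41 genes in the cell cycle and histone list 11 were higher and 6 lower (median 0.11), against 12.5% higher and 12% lower over all genes. The share of lower members was thus near that of all genes. The higher ones included linker histone HHO1 (0.64, adjusted p = 0.00361), histone H3 gene HHT2 (0.59, adjusted p = 0.00487), and SML1, the inhibitor of ribonucleotide reductase (0.67, adjusted p = 0.00619). Leaving out 1 NRCM or water library left 4 to 10 higher and 3 to 4 lower.

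DSE4, a daughter-specific glucanase, was at 24.99, 21.1, and 21.9 CPM with NRCM and at 60.6, 83.8, and 58.3 CPM with water (-1.52, SE 0.18, adjusted p = 0.000748). CTS1, the chitinase of cell separation, was at 171, 114, and 121 CPM with NRCM and at 284, 302, and 270 CPM with water (-1.09, adjusted p = 0.00349), and DSE2 was at 58.4, 43.6, and 45.4 CPM with NRCM and at 89.6, 108, and 93.7 CPM with water (-0.98, adjusted p = 0.00366). TIP1, a mannoprotein of the wall, fell by 1.08 (adjusted p = 0.0137), a call lost without water replicate 1. Against this, CWP1, a wall mannoprotein, was at 162, 136, and 125 CPM with NRCM and at 44.05, 50.5, and 46.5 CPM with water (1.56, adjusted p = 0.000673). Of 37 genes in the cell wall list 12 were lower and 2 higher (median -0.33, or -0.13 with the length trend removed, where 8 were lower and 2 higher), and 6 to 9 were lower without any 1 NRCM or water library.

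The meiosis and spore wall list had 14 of 42 lower and 5 higher (median -0.30). SPO77, which acts in closing the spore membrane, was at 1.95, 2.19, and 2.24 CPM with NRCM and at 8.09, 15.7, and 6.86 CPM with water (-1.76, adjusted p = 0.00172), and OSW1, of the spore wall, at 0.259, 0.685, and 0.195 CPM with NRCM and at 2.65, 7.82, and 3.35 CPM with water (-1.93, adjusted p = 0.00323). IME1, the inducer of meiosis, was at 107, 131, and 145 CPM with NRCM and at 66.1, 75.8, and 68.0 CPM with water (0.85, adjusted p = 0.00641), and SGA1, a sporulation glucoamylase, was at 153, 157, and 154 CPM with NRCM and at 73.1, 81.3, and 85.4 CPM with water (0.95, adjusted p = 0.00410). UME6, which holds early meiotic genes off during growth, rose by 0.51 (adjusted p = 0.00608). Of the 14 lower genes 4 were under 10 CPM in the water mean and 5 were kept in all 9 fits, with 5 to 11 lower without any 1 NRCM or water library.

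Genes near chromosome ends were lower more often than higher. Within 10 kb of an end, 40 of 118 genes were lower and 6 higher (median -0.30), and between 10 and 30 kb 53 of 267 were lower and 17 higher (median -0.12). Without any 1 NRCM or water library 14 to 26 of the first group and 27 to 36 of the second were lower. The COS family, which lies there, had 9 of 12 lower and none higher (median -0.37), 2 to 6 in those fits, and its members are near-identical. COS4 was at 38.1, 39.0, and 36.5 CPM with NRCM and at 52.5, 59.9, and 52.0 CPM with water (-0.52, adjusted p = 0.00849). All 6 lower PAU genes were under 10 CPM, and none was kept in all 9 fits. Of all 797 lower genes 117 were under 10 CPM in the water mean, while 3 of the 833 higher genes were under 10 CPM in the NRCM mean. The floor of the libraries given above moves with these low genes, and its part in them was not tested.

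GPP1, glycerol 3-phosphatase, was at 563, 670.5, and 498 CPM with NRCM and at 309, 284, and 272 CPM with water (0.99, adjusted p = 0.00126), and of 12 genes for glycerol 4 were higher and 1 lower (median 0.35). The lower one was DAK2, dihydroxyacetone kinase, at 13.5, 12.6, and 15.15 CPM with NRCM and at 28.9, 28.1, and 27.8 CPM with water (-0.99, adjusted p = 0.000844). In those fits without 1 NRCM or water library, 1 to 2 of the glycerol genes were higher. PHO3, an acid phosphatase, fell by 1.09 (adjusted p = 0.0116), a call lost without water replicate 2, in a phosphate list with 6 higher and 2 lower of 30 (median -0.07). ZPS1, induced by zinc shortage and alkaline medium, was at 27.9, 31.4, and 20.2 CPM with NRCM and at 98.5, 64.1, and 52.9 CPM with water (-1.38, adjusted p = 0.00323), 1 of 2 lower genes with 1 higher among 19 that respond to zinc (median -0.12). YER084W, a reading frame of no named function, rose by 1.86 (adjusted p = 0.00178), and SRX1, sulfiredoxin, chosen after its values were seen, by 1.27 (adjusted p = 0.00749). Of 39 nutrient signalling and lifespan regulators 5 were higher and 4 lower (median 0.00), 1 to 4 in either direction without any 1 NRCM or water library, and SNF1 (0.05), MSN2 (0.00), RIM15 (0.06), and SCH9 (0.16) were not called.

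The effect of NRCM at 96 h was tested against its effect at 24 h in a fit over the 18 libraries of both times, each effect against the water libraries of its own time. At 24 h 1014 genes were called between NRCM and water. The effect was more positive at 96 h in 183 genes (2.75% of 6656) and more negative in 105 (1.58%), and 47 of these 288 calls were kept in all 18 fits that leave out 1 library. The sources used here do not say whether both times were taken from the same flasks. With libraries of one number and supplement blocked across the times, 15 genes were more positive and 6 more negative, and with a block of the number within each time 90 and 50. AAT1 had the smallest adjusted p together with SPG4: on the scale of that fit AAT1 was at 18.9, 20.5, and 18.1 CPM with NRCM and at 22.7, 18.5, and 18.6 CPM with water at 24 h, and at 191, 234, and 154 CPM with NRCM and 65.4, 73.6, and 52.9 CPM with water at 96 h (difference of log2 fold changes 1.62, SE 0.20, adjusted p = 0.00142). At 24 h the groups overlapped at AAT1 (-0.05, adjusted p = 0.841), and every library was below those of 96 h. SPG4 had log2 fold changes of -0.14 at 24 h and 1.25 at 96 h (difference 1.38, adjusted p = 0.00142).

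**Figure D5:**
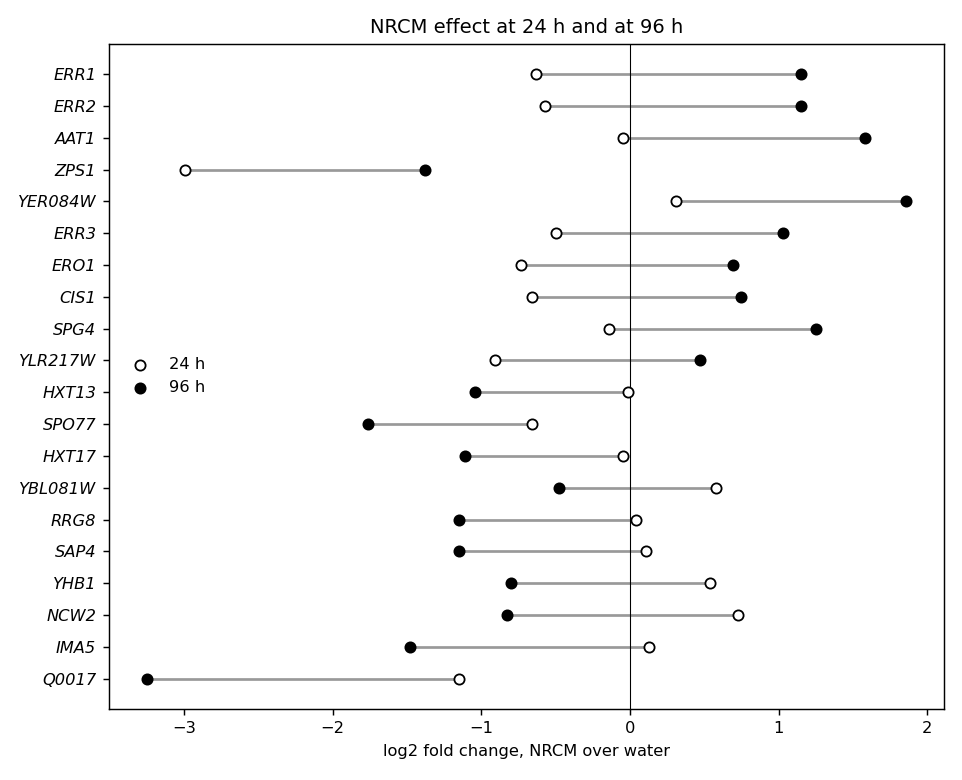
Log2 fold change of NRCM over water (x axis) at 24 h (open points) and at 96 h (filled points) for 20 genes, the 10 largest differences between the times in each direction among genes that were also called at 96 h without overlap, sorted by the difference. AAT1 moves between -0.05 and 1.58, ZPS1 between -2.99 and -1.38, and YHB1 between 0.54 and -0.80.

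Directions turned in some genes. YHB1, the flavohemoglobin that removes nitric oxide, was at 663.5, 731, and 691 CPM with NRCM and at 456, 615, and 387 CPM with water at 24 h, and at 182, 153, and 175 CPM with NRCM and 350, 229, and 333 CPM with water at 96 h (difference -1.35, SE 0.25, adjusted p = 0.0107). YDJ1 was at -0.49 at 24 h and 0.68 at 96 h (difference 1.16, adjusted p = 0.00690). ZPS1 was lower at both times but by less at 96 h (-2.99 and -1.38, difference 1.6, adjusted p = 0.0167). HXT13 (-1.03, adjusted p = 0.00493) and IMA5 (-1.59, adjusted p = 0.0167) were at -0.01 and 0.13 at 24 h. These 7 genes kept the difference in all 18 fits. Among the chaperones 8 of 27 were more positive at 96 h and none more negative, with a median of -0.47 at 24 h and 0.24 at 96 h. Chosen after their values were seen, HSP82 was at -0.98 and 0.34 (difference 1.31, adjusted p = 0.0258) and HSP104 at -0.80 and 0.32 (1.10, adjusted p = 0.0274), each lost in 6 of the 18 fits. In the proteasome 7 of 38 were more positive, and of the 19 zinc-responsive genes 5, whose medians were -0.67 at 24 h and -0.12 at 96 h. PCK1 and FBP1, which define gluconeogenesis and were chosen in the same way, had differences in the other direction, at 1.38 and 0.97 at 24 h and -0.29 and -0.30 at 96 h (differences -1.69, adjusted p = 0.0138, and -1.28, adjusted p = 0.0499), PCK1 kept in all 18 fits and FBP1 lost in 15.

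CRCM and NRCM differed at 96 h in 37.0% of genes tested, and in 42.5% without CRCM replicate 3, which enters this difference itself. PHD1, an activator of pseudohyphal growth, was at 102, 107, and 82.3 CPM with CRCM, at 480, 601, and 430 CPM with NRCM, and at 199, 236, and 202 CPM with water, with a log2 fold change of 1.23 for NRCM over water (adjusted p = 0.000792) and -2.36 for CRCM over NRCM (adjusted p = 4.3e-06). DIP5 was at 590, 541, and 673 CPM with CRCM, higher than with NRCM (1.01, adjusted p = 1e-04), and HXT4 at 26.99, 43.8, and 56.8 CPM with CRCM, lower than with NRCM (-1.23, adjusted p = 0.00719). CTS1 was at 247, 384, and 280 CPM with CRCM (CRCM over NRCM 1.16, adjusted p = 0.000808) and overlapped there with the water libraries. YAT1, at 1277, 1283, and 779 CPM with CRCM (0.02, adjusted p = 0.962), and SPG4, at 1203, 977, and 871 CPM (0.02, adjusted p = 0.936), overlapped between the concentrates. Without CRCM replicate 3 the 4 calls of CRCM over NRCM were kept (PHD1 -2.24, DIP5 0.92, HXT4 -1.47, CTS1 1.20), and YAT1 (0.26) and SPG4 (0.12) were again not called. Both concentrates are set against the same 3 water libraries, so their values are given side by side only.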

How the data were processed

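The 6 libraries of NRCM and water at 96 h were read with the 3 CRCM libraries of that time, and those of 24 h for the test between times. The labels and methods give poly(A) selection, NEBNext libraries, NextSeq 500 sequencing, bowtie2 alignment to sacCer3, and DESeq2, and the processing notes also name bedtools and edgeR. How reads were assigned to genes, and with which strand setting, is not given in the sources used here, so overlapping and antisense genes are uncertain. The deposited values are a signal, the part of all assigned reads in a library that fell on the gene, given for 6692 genes, where a count table had been assumed. Read counts were recovered from the steps in these values (39.8% of values could be tested, of which 99.98% were whole within 0.1 read, and for 7 of the 27 columns a separate check of whole reads was not passed), used for the depth, the TMM factors, and the count-based alternatives. RefSeq R64 matched 6008 IDs, and 684 were used by ID alone.

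Shares were turned into CPM, scaled with TMM factors, filtered at 1 CPM in at least 3 libraries, and tested as log2(CPM + 1) with limma 3.58.1 with Benjamini-Hochberg adjustment, so fold changes of low genes are understated. The difference between times was an interaction term over 18 libraries. Alternatives were other scalings, pseudocounts, filters, sets of libraries, edgeR 4.0.16, DESeq2 1.42.0, a replicate block, and each library left out. Named genes were the 10 largest changes in each direction among genes of at least 10 CPM without overlap, the 5 smallest adjusted p, up to 4 called members of each list in each direction, the members that define a list and did not pass, and the 10 largest differences between times in each direction among genes that met the conditions for the largest changes at 96 h. The largest increases outside the rRNA locus and decreases outside the mitochondrial genome were added after their values were seen. HOF1, SRX1, AQY1, YMR244W, and YGR139W were named only in that way. The comparison and the gene lists were chosen with earlier results of these data known. On simulated data the test of NRCM against water recovered 58.2% of genes changed 1.5-fold and 97% of those changed 2-fold, over 6652 genes.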

Additional observations from a re-analysis of the deposited data

Results flagged for a closer look

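The effect of NRCM over water differed between 96 h and 24 h by the interaction test for 48 named genes. It was more positive at 96 h in 33 of them and more negative in 15. The rule named 236 genes, while AQY1, YMR244W, and YGR139W of the 48 were added after their values were seen. Some of the others were named for the size of this difference, so 33 and 15 depend on how genes were chosen. Over all 6656 genes, 183 were more positive (2.75%) and 105 more negative (1.58%). The values below are differences of log2 fold changes, 96 h minus 24 h, and each time has its own water libraries. In fits that leave out 1 of the 18 libraries, 16 of the 48 kept the difference in every fit: AAT1, SPG4, DAL80, SNZ1, LYS20, YDJ1, ARE1, SIS1, ZAP1, YLR217W, ZPS1, YBL081W, YHB1, HXT13, RRG8, and IMA5. The other 32 lost it in at least 1 fit and in up to 15 of 18, as CAR2 did, and HSP12, SGA1, SPO77, and URK1 lost it in 14 each. The call between NRCM and water at 96 h is a separate matter. Of the 16, ZAP1, YLR217W, and YBL081W lost that call in some of the 9 fits that leave out 1 library. Of the 32, so did ERR1, ERR2, ERR3, CIS1, ATG8, RAS2, GPD2, SNX4, SNO1, CAR2, SUL2, and URK1.

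Among enzymes and transporters the difference was 1.62 for AAT1, 1.24 for ADY2, 1.01 for GPP1, 0.84 for CAR2, 0.84 for SNZ1, 0.56 for SNO1, 0.82 for LYS20, 0.67 for GPD2, and 0.70 for ARE1. The enolase-related genes ERR1, ERR2, and ERR3, near-identical copies that can share reads, were at 1.77, 1.71, and 1.52. For stress and chaperone genes it was 1.38 for SPG4, 1.16 for HSP12, 1.18 for SIP18, 1.16 for YDJ1, 0.98 for SIS1, and 1.40 for ERO1. Regulators were at 1.06 for DAL80, 0.56 for MIG1, 0.96 for RAS2, and 1.2 for ZAP1. Genes of other roles were at 1.2 for AQY1, 0.74 for SGA1, 1.29 for DRE2, 1.39 for CIS1, 1.28 for ATG8, 0.49 for MRPS16, and 0.66 for SNX4. YER084W was at 1.53, YMR244W at 1.24, and YLR217W, which overlaps CPR6, at 1.37. ZPS1, lower with NRCM at both times, was at 1.6.

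More negative at 96 h were the sugar genes HXT13 at -1.03, HXT17 at -1.06, and IMA5 at -1.59, as well as YHB1 at -1.35, NCW2 at -1.57, DAK2 at -0.57, SUL2 at -0.75, BNA1 at -0.57, and URK1 at -0.63. SAP4 was at -1.26, RRG8 at -1.18, SPO77 at -1.06, YBL081W at -1.07, YGR139W at -0.81, and the mitochondrial Q0017 at -2.00.

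CRCM 96 h replicate 3, which is outside the comparison of NRCM with water, held 70.0 CPM of LEU2 and 12 CPM of URA3, genes the strain lacks. Its mitochondrial sum, without TMM factors, was 9630 CPM, where the other CRCM libraries of 96 h held 341 and 449 CPM. The source of these reads was not tested.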

How the results depend on the processing

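At 96 h, 833 genes were higher and 797 lower with NRCM. The counts were 489 and 1108 without TMM factors, 1392 and 1350 in the 6 NRCM and water libraries alone, 827 and 783 with edgeR, 1034 and 921 with DESeq2, and 624 and 564 with the gene-length trend removed, an alternative added after seeing the data. Leaving out 1 library gave 351 to 1433 higher and 336 to 1341 lower genes. Every NRCM and water library lowered the counts by over 1.5 times when left out: 380 and 377 without NRCM replicate 1, 445 and 425 without NRCM replicate 2, 555 and 507 without NRCM replicate 3, 351 and 336 without water replicate 1, 380 and 339 without water replicate 2, and 535 and 446 without water replicate 3. Without CRCM replicate 3 they were 1433 and 1341, without CRCM replicate 1 932 and 897, and without CRCM replicate 2 729 and 665. All 27 libraries gave 589 and 582. Fits with fewer libraries have fewer residual degrees of freedom, but the counts did not simply follow the number of libraries. Why they moved was not tested.

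For the difference between times, 183 genes were more positive and 105 more negative. The counts were 84 and 278 without TMM factors and 340 and 163 with DESeq2. Leaving out 1 library gave 40 to 455 and 19 to 345, the highest without NRCM 24 h replicate 1 (455 and 345) and CRCM 96 h replicate 3 (381 and 228), the lowest without water 96 h replicate 2 (40 more positive) and water 24 h replicate 3 (19 more negative). The cause was not tested.

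Same-numbered NRCM and water libraries did not clearly deviate together (correlations -0.027, 0.147, and 0). With 3 libraries a group, this cannot show whether their numbers pair them. With the replicate block 659 genes were higher and 635 lower at 96 h, and 90 more positive and 50 more negative between times. Libraries of one supplement and number at 24 h and 96 h did not clearly deviate together either (correlations -0.375 to 0.069), which cannot show that they came from different flasks. Blocking them, added after seeing the data, left 15 and 6.

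Of the 1630 calls 496 were kept under every alternative chosen beforehand. Among checks of named genes 4172 kept direction and call, 721 kept direction and lost the call, and 2 reversed, TOR1 at 0.07 and TOR2 at 0.05 with the gene-length trend removed. The summed mitochondrial difference stayed between -3.82 and -3.06. Depth limits genes of a few CPM, since 1 CPM is 7.52 to 10.4 reads in the NRCM libraries.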
